A study of Mus musculus with 136 samples.

Results

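The genes that encode the proteins of the cytosolic ribosome were followed in mouse embryos, and in the visceral yolk sacs that had surrounded them, from pregnancies of dams with normal blood glucose and of diabetic dams. The genes were chosen by symbol alone, as Rpl or Rps followed by a number and at most a letter and a further digit, with Rplp0, Rplp1, Rplp2 and Rpsa, and without pseudogenes and the S6 kinases. This gave 83 of 47643 genes in the count table, 51 of the large subunit and 32 of the small subunit with Rpsa. All concepti were of the NOD strain, whose females can develop diabetes without an inducing agent, and were dissected at E8.5 (8.5 days of gestation). Sires were normoglycemic NOD males, and no allele or agent distinguished the groups. Dams of the normal groups had 105 to 164 mg/dl of glucose at euthanasia, and diabetic dams 423 to 595 mg/dl, apart from 1 recorded only as above the range of the meter.

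Concepti with 5 to 6 somite pairs (called earlier here) and with 7 to 9 (later) were kept apart. There were 17 earlier and 16 later embryos from normal dams, the same numbers from diabetic dams, and 1 yolk sac for each of these 66 embryos. Normal embryos came from 10 litters at the earlier stage and 7 at the later stage, all 7 of them also among the 10. Diabetic embryos came from 9 and 6 litters, with 3 litters in both, and 1 litter (D24M15) gave 7 of the 16 later diabetic concepti. No dam was in both conditions, so each litter has a single maternal condition. Each library is 1 embryo or 1 yolk sac, a mixture of cell types, in which fewer cells of a type and less RNA per cell cannot be told apart.

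A ribosome is built from a small and a large subunit, each a core of ribosomal RNA bound by many small proteins. The small subunit decodes the mRNA and the large subunit joins amino acids, while the acidic stalk proteins Rplp0, Rplp1 and Rplp2 recruit the translation factors. In vertebrates the mRNAs of these proteins begin with a C and a run of pyrimidines, the 5′ terminal oligopyrimidine (TOP) tract, through which mTORC1 and Larp1 adjust their translation to growth factors and nutrients. Mouse mutants of single members have patterning, pigment or blood defects, and free Rpl5 and Rpl11 bind Mdm2, the ligase that keeps p53 low.

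A tract of this kind was searched at the start sites, since it is the sequence feature the family is known for. A run of at least 7 pyrimidines that begins with C, on the strand of the gene and starting within 25 bases of the annotated start, was found in 39 of the 63 members that have an entry among the RefSeq promoters (61.9%, build GRCm38.p6), against 26.8% of all 27025 genes with a promoter entry. The search does not place the first base of the mRNA and a match is not a tested site. The windows below span 30 bases, with the run in capitals. The first 7 are those of the genes called higher in later diabetic embryos that had a run, and the others belong to genes described for stage and tissue.
Rps19, chr7:24884911-24884940, plus strand: gtggagggCTCTCCCacgcggtcaccacgc
Rpl14, chr9:120571501-120571530, plus strand: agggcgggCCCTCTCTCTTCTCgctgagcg
Rpl26, chr11:68901581-68901610, plus strand: gtgtagttCTCTTTCCTTTTgcggccatcg
Rps10, chr17:27635226-27635255, minus strand: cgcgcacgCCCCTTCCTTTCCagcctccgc
Rpl19, chr11:98026905-98026934, plus strand: ggcttgggCTCTCCCCTTCgcagataatgg
Rps15a, chr7:118116126-118116155, minus strand: tctgccatCTTCCCTCgccggtgagtgagt
Rpl31, chr1:39367839-39367868, plus strand: cctcctcgCCTCCCCgtgacccggaagttg
Rpl28, chr7:4792955-4792984, plus strand: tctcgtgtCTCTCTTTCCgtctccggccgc
Rpl39, chrX:37085195-37085224, minus strand: tctagcgaCTTCTTCTaatcgcgttcttcc
Rpl39l, chr16:10170213-10170242, plus strand: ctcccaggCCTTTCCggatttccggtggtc
Rps27l, chr9:66946066-66946095, plus strand: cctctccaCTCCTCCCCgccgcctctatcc
The run of Rps19, the member with the largest difference in later diabetic embryos, has 7 pyrimidines, the fewest the search accepts, while that of Rpl14 has 14.

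Libraries held 1017901 to 5658850 counts (median 2302819), and each count is a 3′ tag collapsed by its molecular identifier, so that a level does not scale with the length of the mRNA. Levels are given as normalized counts, that is counts divided by the size factor of the library, with all libraries scaled together. The tissues matched their labels. All 10 visceral endoderm markers and all 5 primitive erythroid markers were called higher in yolk sacs and all 8 markers of the embryo proper were called lower, at both stages. Embryos held 45.03 to 1572 CPM (counts scaled to a common library total) of the visceral endoderm markers in sum, against 4580 to 18940 CPM in yolk sacs. The decidual prolactins reached 317.9 CPM in sum in diabetic yolk sacs and 12.77 CPM in normal yolk sacs, and their part in the results was not tested. In 2 yolk sacs the ribosomal protein genes stood apart from the rest of their group. The normal earlier yolk sac N28M06A had 7.446% of its counts in the 83 genes, the highest share of any yolk sac, and the diabetic later yolk sac D28M36C had 2.058%, the lowest of all libraries. The counts of the stage change in yolk sacs and the diabetes median of earlier yolk sacs are also given without them. Other yolk sac results include those of their stage.

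The 83 genes made up 3.795% to 7.972% of the counts of an embryo and 2.058% to 7.446% of those of a yolk sac. In embryos the median share was 5.068% (lowest 3.882%, highest 6.977%, n = 17) in earlier normal, 4.402% (3.795% to 7.431%, n = 17) in earlier diabetic, 4.944% (4.219% to 7.972%, n = 16) in later normal and 5.633% (5.015% to 7.181%, n = 16) in later diabetic embryos. In yolk sacs it was 3.505% (2.891% to 7.446%) in earlier normal, 3.273% (2.908% to 3.8%) in earlier diabetic, 4.123% (3.307% to 6.03%) in later normal and 4.26% (2.058% to 5.811%) in later diabetic yolk sacs. The ranges of all normal and diabetic groups overlapped. Averaged by litter, the 6 later diabetic litters lay between 5.25% and 7.18% (median 5.67%) and the 7 later normal litters between 4.22% and 6.48% (median 4.88%).

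**Figure D1:**
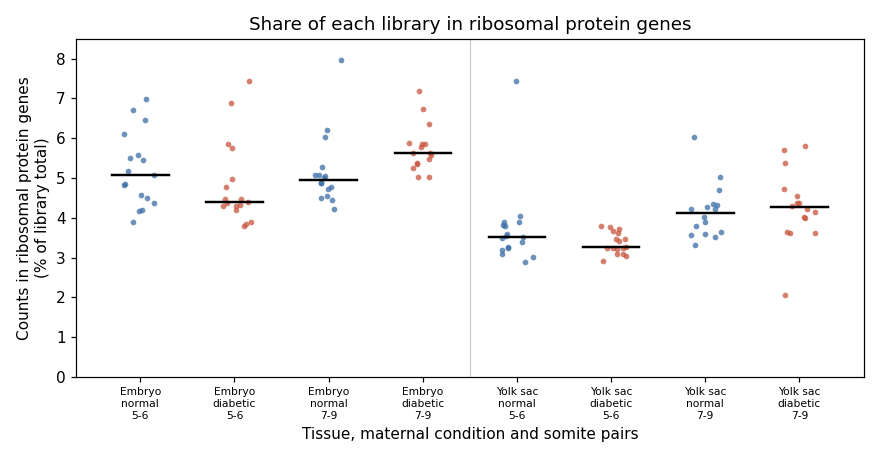
Share of all counts that fell in the 83 ribosomal protein genes, in percent, for each library, by tissue, stage and maternal condition. Embryos lie above most yolk sacs, the later diabetic embryos have the highest median (5.633%), and N28M06A is the yolk sac at 7.446%.

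The members were far from equal in level. Rps20, a protein of the small subunit head, had the highest level in both tissues, 9744 ± 2636 normalized counts in embryos and 6613 ± 2012 in yolk sacs (SD, n = 66 each), and took 8.47% of all counts of the family in embryos. Rps12 (4513 ± 1028) and Rps14 (4277 ± 1079) followed in embryos, and Rpl4 (3788 ± 1192) and Rpl13 (3075 ± 1005) in yolk sacs. Rpl13 (4054 ± 1151) and Rpl4 (3826 ± 872.2) came next in embryos, and all of these neighbours after Rps20 lay within each other's SD.

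At the other end, Rpl3l, the muscle form of Rpl3, was nearly undetected at 0.1247 ± 0.3498 normalized counts in embryos and 0.2044 ± 0.5157 in yolk sacs. Rpl24, a core large subunit protein, was counted at only 2.934 ± 1.692 and 2.004 ± 1.484, and Rpl29 at 3.368 ± 3.969 and 3.263 ± 2.947. Reads that match a pseudogene or another copy equally well may not be counted, so levels of members with such copies are uncertain. The last 300 bases of a chosen annotated coding transcript were searched for each member. In 27 members no stretch of 65 bases occurred in another gene. For 19 under 50% of the stretches did, and for 37 at least 50%. The chosen transcript can be long, 5179 bases for Rps15a and 3706 for Rps20, and its end need not be where the tags lie. The 27 members with no shared stretch had a median level of 1049 normalized counts, and the 37 that shared most had 594.6.

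Within groups the members varied together. Over the 76 members with a mean of at least 100 counts, the first principal component of the deviations from the group means held 59.7% of the variance and the second 16.8%, and 74 of the 76 loaded on the first with the same sign. These are values of shared libraries and not independent. Rps9 was the steadiest (SD 0.207 on the log2 scale), and the median SD was 0.383. For 2 concepti both tissues had been sequenced again, and these 4 duplicates, left out except in an alternative that added them to their originals, differed from their originals by a median of 0.0273 to 0.0487 on the log2 scale over these genes. The nearest other library of the same group differed by 0.116 to 0.187.

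The first question was whether maternal diabetes changed these genes. In later embryos, 17 of the 78 members tested were higher in diabetic than in normal embryos and none was lower (edgeR quasi-likelihood test, Benjamini-Hochberg adjusted p under 0.05 over all genes). That is 21.8% of the members, against 5.2% of all 10628 genes tested called higher and 3.89% called lower. The 17 genes came from both subunits, 9 of 46 tested in the large and 8 of 32 in the small subunit. The differences were small, from 1.17-fold for Rpl6 and Rps13 to 1.32-fold for Rps19, and the median log2 difference over the 78 members was 0.10, against −0.01 over all genes.

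Rps19, a small subunit protein that is mutated in Diamond-Blackfan anemia, had the largest difference. Its level was 482.5, 573.2 and 840.1 normalized counts (lowest, median and highest) in the 16 later normal embryos and 633.9, 738.4 and 1215 in the 16 diabetic embryos. All 16 diabetic embryos lay above the normal median and 5 lay above the highest normal embryo, so the groups were shifted but overlapped. The log2 difference was 0.41 ± 0.086 (SE, 95% CI 0.23 to 0.58, adjusted p = 0.00388).

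Rpl26, a large subunit protein that also binds the p53 mRNA, ranged from 1600 to 3526 (median 2089) in normal and from 1869 to 4358 (median 2665) in diabetic embryos, a log2 difference of 0.39 ± 0.107 (adjusted p = 0.0194). Rps20 ranged from 5583 to 13190 (median 7608) and from 6819 to 17220 (median 9787), a difference of 0.38 ± 0.121 (adjusted p = 0.0412). Rpl14 ranged from 1931 to 3060 (median 2361) and from 2299 to 4517 (median 3114), a difference of 0.37 ± 0.083 (adjusted p = 0.00648). For Rpl14, 8 of the 16 diabetic embryos lay above the highest normal embryo, while for Rpl26 3 and for Rps20 2 did so. With litter as a random block (limma) the calls of Rpl26 (adjusted p = 0.0547) and Rps20 (adjusted p = 0.0939) were lost, and that of Rpl14 was not (adjusted p = 0.0264).

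The other genes called included Rpl8, Rps10, Rps14, Rpl31, Rpl19, Rps15a, Rpl32, Rpsa, Rplp0, Rpl23a, Rpl6 and Rps13, with log2 differences of 0.23 to 0.36. Litter means did not overlap for Rpl8, which sits near the peptidyl transferase center, for Rpl14 and for the stalk base Rplp0. The litter means of Rpl8 were 3689 to 5418 normalized counts in the 6 diabetic litters and 2873 to 3448 in the 7 normal litters. Those of Rpl14 were 2795 to 3940 and 2065 to 2618, and those of Rplp0 1706 to 2047 and 1294 to 1641. For Rps19 they overlapped, at 704.4 to 969.3 and 482.5 to 724.9. These genes were singled out after their litter means were seen, in a comparison that called 5.2% of all genes higher.

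**Figure D2:**
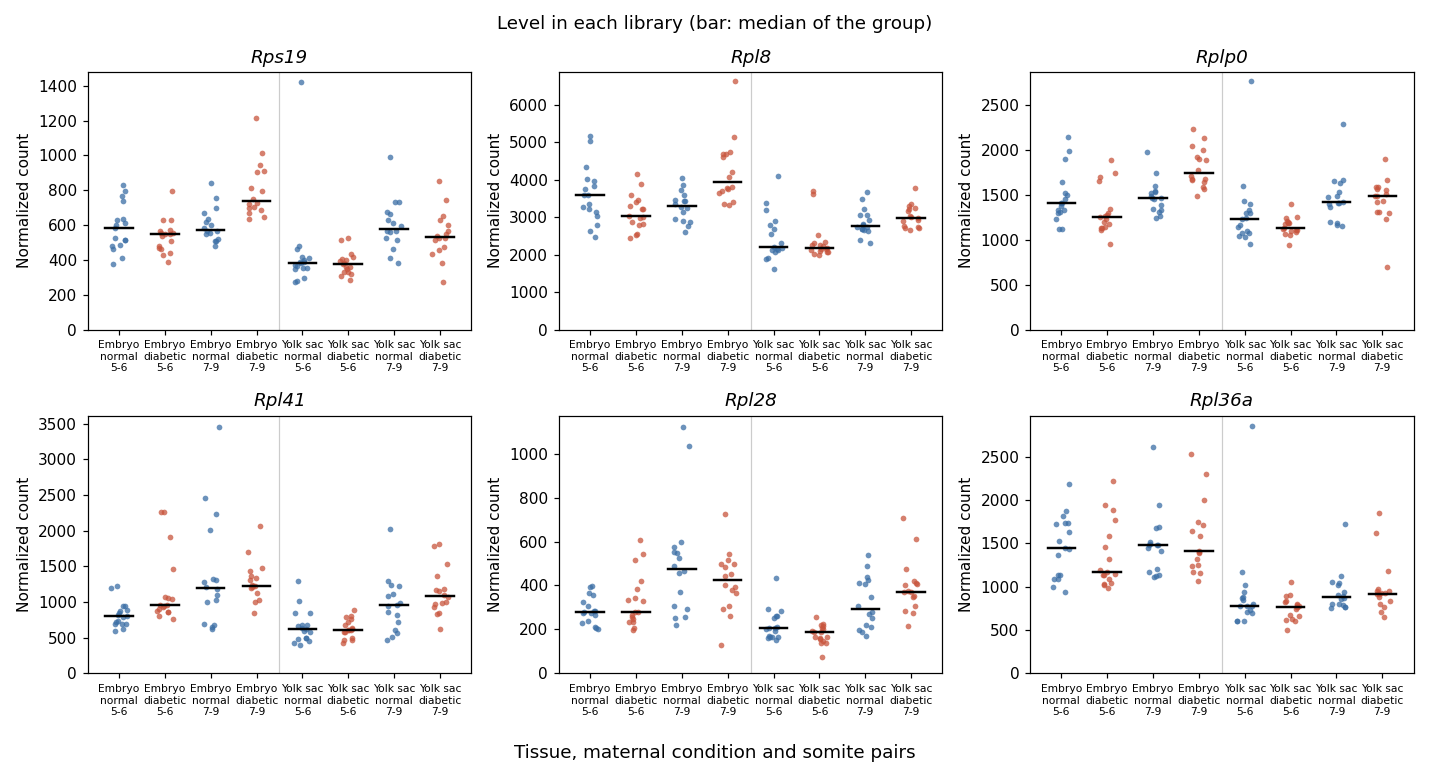
Normalized counts of Rps19, Rpl8, Rplp0, Rpl41, Rpl28 and Rpl36a in each library, by tissue, stage and maternal condition, on linear axes from 0, with 1 point for each embryo or yolk sac and a bar at the group median. The later diabetic embryos sit above the later normal embryos for Rps19, Rpl8 and Rplp0 with overlap, Rpl41 and Rpl28 are higher in later yolk sacs, and Rpl36a is lower in yolk sacs than in embryos.

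Embryos of 1 litter are not independent, and the result in later embryos depended on how litters were treated. Embryos of a litter correlated at 0.128 in this comparison. With litter as a random block 7 genes were called (among them Rps19, Rplp0, Rpl8, Rpl14, Rps10 and Rpl32), and with the counts of each litter summed, 6 against 7 litters, none was, although the median difference was then 0.17. Rps19 had a difference of 0.45 ± 0.105 in that fit (adjusted p = 0.0677). Leaving out 1 litter at a time gave from 6 genes (without N28M05) to 27 (without N28M06), and 7 to 10 without N28M07, D28M31, N28M03, D28M36 or N24M29. Without D24M15, the litter with 7 embryos, 14 genes were called.

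Other measurements moved with the condition in the same later embryos. Length here is the median over all annotated transcripts of a gene, non-coding ones included, and not that of the mRNA itself. Genes with a length under 1000 bases, members left out, had a median log2 difference of 0.05, and 8.68% were called higher. Those of at least 4000 bases had a median of −0.12. With the trend on this length and on GC content removed, 11 members were called and the median was 0.03. The erythroid markers summed to 9.278 to 723.7 CPM in normal and 16.4 to 2291 CPM in diabetic embryos, with 0 of the 3 tested markers called, and the visceral endoderm markers to 45.03 to 665.2 CPM and 67.45 to 1572 CPM, with 0 of 8 called. The part of these in the result was not tested.

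In earlier embryos no member passed the test. An unadjusted p under 0.05 (edgeR) was found for 8 of 78 members and for 2313 of all 11004 genes. DESeq2 called 1 member. Of all 11004 genes, 0.591% were called higher and 0.872% lower in diabetic embryos. The median difference over the members was 0.00, with 39 above and 39 below 0. The 2 embryos of litter D28M37 had 6.88% and 7.431% of their counts in the family, against a group median of 4.402%, and without that litter the median was −0.12 and 2 members were called lower. Rps19 had 377.8 to 830.1 normalized counts (median 582.4) in normal and 386.1 to 793.8 (median 547.8) in diabetic embryos, a log2 difference of −0.12 with a 95% CI of −0.32 to 0.08. Rpl8 had −0.19 (−0.38 to −0.01, adjusted over all genes not called). Rps7, another Mdm2 binding protein, had −0.30 ± 0.113 (adjusted p = 0.135).

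The diabetes differences of the 2 stages themselves differed in embryos for 10 of the 78 members, all with a more positive difference at the later stage (test of the stage by diabetes interaction). That is 12.8% of the members, against 4.35% of all 11304 genes called in each direction. The median interaction over the members was 0.16, and 0.02 with the trend on length and GC removed, where 6 were called higher and 1 lower. The 10 genes were Rpl26, Rpl8, Rps19, Rps14, Rps15a, Rps12, Rpl7, Rpl14, Rplp0 and Rps13, at 0.33 to 0.58 on the log2 scale. For Rpl8, median levels were 3582 and 3041 normalized counts in earlier normal and diabetic embryos, and 3306 and 3943 in later ones, so the order of the conditions turned.

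In yolk sacs the test called no member at either stage. An unadjusted p under 0.05 (edgeR) was found for 12 of 79 members and 863 of 10250 genes at the earlier stage. At the later stage it was found for 1 of 78 members and 1122 of 10317 genes. DESeq2 called 0 members at both. The background was as low, with 0% of 10250 genes called in each direction at the earlier stage, and 0.0194% higher and 0% lower of 10317 genes at the later stage. Earlier diabetic yolk sacs had 76 of 79 members below the normal level in the fit (median −0.22). Without N28M06A, the 1 of the 2 yolk sacs set apart above that belongs to this stage, the median was −0.08. It was set apart for its high share in these genes, so a move toward 0 was built into that choice. Genes were also split by the median length of their annotated transcripts. In N28M06A, those of at least 4000 bases had a median log2 deviation of −0.9903 from their mean over the libraries. Those under 1000 bases had one of 0.3869. The largest value at the later stage was that of the stalk protein Rplp2, 0.47 with a 95% CI of 0.18 to 0.75 (adjusted p = 0.264). For Rps19 it was −0.14 (−0.38 to 0.11).

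The stage by diabetes interaction called 0 of 79 members in yolk sacs (0 by DESeq2), and 0% of 10857 genes in each direction. An unadjusted p under 0.05 (edgeR) was found there for 15 members and 634 genes. Whether the diabetes difference differed between yolk sac and embryo was tested as well. At the earlier stage this test called 0 of 79 members (0 by DESeq2) and 0% of 11677 genes in each direction. It gave an unadjusted p under 0.05 for 6 members and 895 genes. At the later stage it called 0 of 78 members (2 by DESeq2), against 0.19% of 11577 genes higher and 0.199% lower. An unadjusted p under 0.05 was given for 20 members and 2046 genes. Rps19 had −0.53 ± 0.152 there (adjusted p = 0.068), with the yolk sac difference the lower. The calls in later embryos were thus not shown to differ from the yolk sac.

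**Figure D3:**
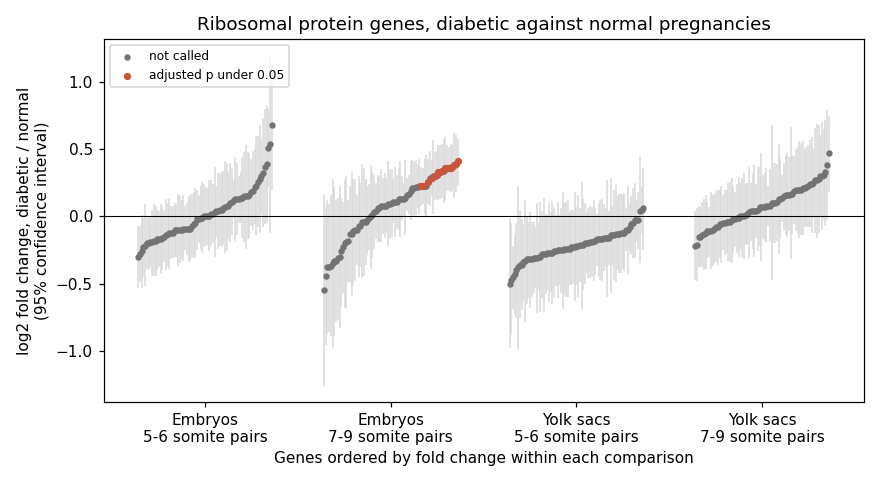
Log2 difference between diabetic and normal for each tested member, with its 95% confidence interval, ordered by size, in embryos and yolk sacs of both stages. Members that passed the adjusted test are drawn in red, 17 in later embryos and none in the other panels, and most points of the earlier yolk sacs lie below 0.

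The next question was how these genes changed with stage. In yolk sacs of diabetic dams, 48 of 79 members rose from the earlier to the later stage and none fell (median log2 change 0.46), against 18.9% of 10857 genes called higher and 14.3% called lower. In normal yolk sacs 8 rose and none fell (median 0.16), against 5.71% and 2.95% of the genes. Without N28M06A and D28M36C the counts were 54 and 32. These 2 yolk sacs were set apart by their share in the same genes, one high at the earlier and one low at the later stage. Leaving them out favors a larger rise by that choice, so these counts are no independent check. All 8 genes called in normal yolk sacs were also called in diabetic ones, where they were 16.7% of the calls. The overlap over all genes was not counted. The interaction gave no call for the difference between the 2 conditions. Here and in the embryos below, only 3 diabetic litters gave both stages, while all 7 later normal litters also gave earlier concepti. Litter D24M15 gave 7 of the 16 later diabetic concepti. In the diabetic groups stage and litter are thus partly mixed, and the stage fits count littermates as independent.

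Rpl28, a large subunit protein, rose in the yolk sacs of both conditions. In normal yolk sacs its level was 152.3, 204.9 and 434.2 (lowest, median, highest) in the earlier group and 169.7, 292.4 and 537.5 in the later group, a log2 change of 0.55 ± 0.150 (adjusted p = 0.0121). In diabetic yolk sacs it was 75.51, 186.9 and 256.4, then 215.1, 372.2 and 708.8, a change of 1.16 ± 0.150 (adjusted p = 1.64e-08). The ranges overlapped in both conditions.

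Rpl41, the smallest ribosomal protein, changed by 0.57 ± 0.151 in normal and 0.87 ± 0.151 in diabetic yolk sacs, and Rpl39, which lines the exit tunnel, by 0.55 ± 0.179 and 0.69 ± 0.179. Rpl19, Rps15 and Rps19 were also called in both conditions. Of the other genes called in diabetic yolk sacs, Rps4x changed by 1.07 ± 0.202 and Rps3a1 by 1.01 ± 0.220. Rps4x is encoded on the X chromosome. By the labels, males outnumbered females in the earlier but not in the later diabetic yolk sacs. Primitive erythroid and visceral endoderm markers moved with stage in the same yolk sacs, 5 of 5 and 8 of 10 called higher in the diabetic and 4 of 5 and 6 of 10 in the normal group. Of 5 trophoblast markers 1 was tested, and it was called lower with stage in both, at −1.35 in diabetic and −0.9 in normal yolk sacs. The part of these markers in the result was not tested.

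In diabetic embryos 23 of 78 members rose with stage and none fell (median 0.20), against 15.8% of 11304 genes called higher and 15.6% lower. Of genes with a length under 1000 bases, members left out, 21.1% were called higher and 10.8% lower. With the length and GC trend removed 14 members were called higher and 0 lower, with a median of 0.14. In normal embryos 9 rose and 4 fell (median 0.10), against 5.82% and 7.85%. The calls shared 3 genes, Rps15 and Rpl19 among them, which is 23.1% of the normal and 13% of the diabetic calls. The same overlap over all genes was not counted, so these shares have no background. The comparisons of diabetic with normal and of later with earlier embryos use the same later diabetic embryos, so their results are not independent.

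In normal embryos Rpl28 had 202.1 to 396.7 normalized counts (median 277.7) at first and 219.3 to 1121 (median 476.4) in the later group, a log2 change of 0.82 ± 0.177 (adjusted p = 0.00116), and the groups overlapped. Rpl41 changed by 0.75 ± 0.173 (adjusted p = 0.00205) and Rpl35 by 0.74 ± 0.250 (adjusted p = 0.0376). Litter N24M21, with 2 of the later normal embryos, had the highest litter mean for Rpl28, Rpl41 and Rpl35. It was 789.7 for Rpl28 against a median litter mean of 389.9, 2369 against 1094 for Rpl41 and 373.3 against 121.1 for Rpl35. The stage changes were not tested without this litter. The genes that fell were Rpl7 (−0.33 ± 0.102), Rps25 (−0.31 ± 0.111), Rpl23a (−0.27 ± 0.092) and Rps13 (−0.22 ± 0.078). Rps25 is needed for translation from several internal ribosome entry sites.

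In diabetic embryos Rps19 changed by 0.59 ± 0.095 (adjusted p = 3.84e-06), from a median of 547.8 to 738.4 normalized counts, and Rpl39 by 0.59 ± 0.150, Rps15 by 0.58 ± 0.110 and Rpl26 by 0.54 ± 0.122. In normal embryos Rps19 had medians of 582.4 and 573.2, a change of 0.05 ± 0.095 (adjusted p = 0.784). For Rps19 the interaction reported above is the test of this contrast. Primitive erythroid markers also rose with stage in both conditions, 3 of 3 tested, and the part of this in the changes of the ribosomal protein genes was not tested.

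**Figure D4:**
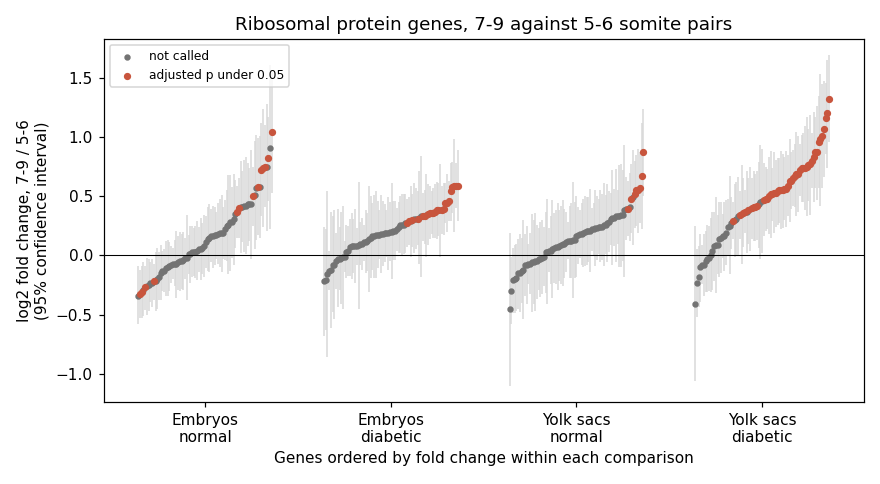
Log2 change from 5 to 6 to 7 to 9 somite pairs for each tested member, with its 95% confidence interval, ordered by size, in normal and diabetic embryos and yolk sacs. Members that passed the adjusted test are in red, 48 in diabetic yolk sacs, 23 in diabetic embryos, 13 in normal embryos and 8 in normal yolk sacs.

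Most members lay lower in yolk sacs than in embryos in the fit, 68 of 79 at the earlier and 61 of 78 at the later stage. The median log2 differences were −0.25 and −0.15, against 0.00 and −0.04 over all genes. Calls were fewer. At the earlier stage 42 of 79 members were called lower in yolk sacs and 1, Rpl39l, higher. Of 11677 genes, 39.8% were called lower and 39.4% higher. At the later stage 34 of 78 were called lower and 2 higher, against 42.6% and 38.7% of 11577 genes. The share of members called lower was 53.2% at the earlier stage, above the 39.8% of all genes. At the later stage it was 43.6%, near the 42.6% of all genes. The share of members called higher, 1.27% and 2.56%, was well below the background at both stages. The 32 members called at both stages were 74.4% of the earlier and 88.9% of the later calls. This overlap was not counted over all genes. Each conceptus gave both tissues, and with the conceptus as a block 47 and 39 members were called.

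Rpl36a, a large subunit protein encoded on the X chromosome, had the most negative difference at the earlier stage. At the earlier stage its level was 942.4 to 2186 normalized counts (median 1445) in normal embryos and 604.6 to 2855 (median 779.2) in normal yolk sacs, and over both conditions the log2 difference was −0.70 ± 0.1 (adjusted p = 3.01e-09). At the later stage it was −0.65 ± 0.089 (adjusted p = 9.48e-10). All 236 stretches of 65 bases at its 3′ end occur in other genes, so its level is uncertain in both tissues. Rpl36 (−0.68 ± 0.091), Rpl28 (−0.58 ± 0.097), Rpl41 (−0.55 ± 0.099) and Rps12 (−0.55 ± 0.090) followed at the earlier stage.

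At the later stage Rps14 had −0.68 ± 0.095 (adjusted p = 1.59e-09), Rps12 −0.59 ± 0.082, Rps27a, made as a fusion with ubiquitin, −0.53 ± 0.160 and Rps20 −0.51 ± 0.082. Rps14 had a median of 3616 normalized counts in later normal embryos and 2563 in later normal yolk sacs. Rps24 (0.33 ± 0.111, adjusted p = 0.00614) and Rps27l (0.24 ± 0.097, adjusted p = 0.0221) were called higher in later yolk sacs, and neither was by library totals alone. Scaling by library totals alone moved the median of all genes to −0.20 and −0.17 at the 2 stages. In that fit 68 and 51 members were called lower. With the length and GC trend removed 62 and 47 were.

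**Figure D5:**
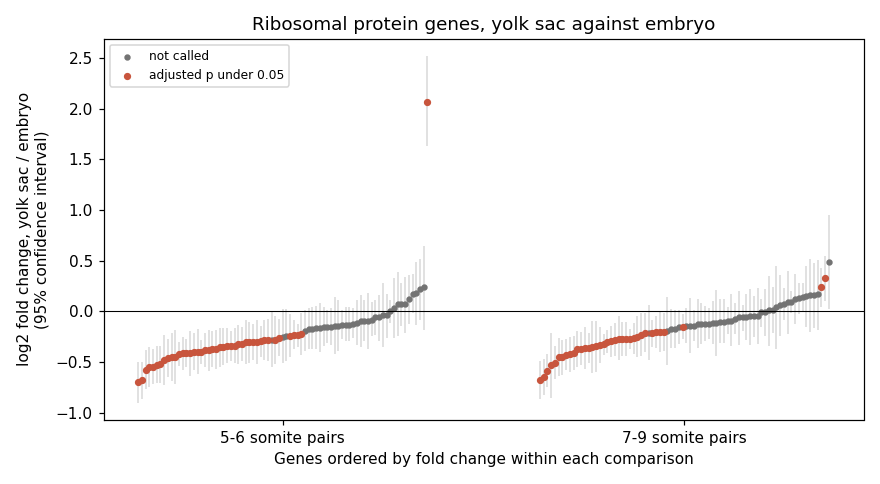
Log2 difference between yolk sac and embryo for each tested member, with its 95% confidence interval, ordered by size, at each stage. Members that passed the adjusted test are in red. Most lie below 0, and the point at 2.07 at the earlier stage is Rpl39l, which passed the count filter through the yolk sacs.

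The paralogs whose symbols end in l or l and a digit behaved in different ways. Rpl39l, the copy of Rpl39 known from the male germ line, had a log2 difference of 2.07 ± 0.222 between earlier yolk sacs and embryos. It passed the count filter there through the yolk sacs and was not tested within embryos, so a call higher in yolk sacs was fixed by the filter and is given as a description. It was low everywhere, at 0 to 7.786 normalized counts in earlier normal embryos (median 3.295) and 3.614 to 64.97 in their yolk sacs (median 11.61), so that the ranges overlapped. It fell under the count filter at the later stage. Rpl39 had −0.16 ± 0.122 in the same comparison (adjusted p = 0.221). Rpl10l, a copy of Rpl10 used in spermatogenesis, was also seen mainly in yolk sacs, at 5.367 ± 4.31 normalized counts against 0.6943 ± 1.064 in embryos (SD, n = 66), but was below the filter and not tested.

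Rps27l, induced by p53, was called higher in later yolk sacs, while Rps27 had −0.12 ± 0.120 (adjusted p = 0.341) there and was lower at the earlier stage, at −0.30 ± 0.110 (adjusted p = 0.0114). Neither was called in any comparison of diabetic with normal. Rpl22l1, which can replace Rpl22, was not called in any comparison, whereas Rpl22 was lower in yolk sacs at both stages, at −0.26 ± 0.093 and −0.29 ± 0.080. Rpl7l1 had a tissue difference of 0.00 ± 0.055 and 0.09 ± 0.055, and Rpl7 of −0.32 ± 0.086 and −0.41 ± 0.085. Rpl3 was called once, in diabetic yolk sacs, where it rose by 0.69 ± 0.160 with stage.

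Of the stalk, the base Rplp0 was called higher in later diabetic embryos, at 0.29 ± 0.066 (adjusted p = 0.00699), and at 0.16 ± 0.067 (adjusted p = 0.131) with the length and GC trend removed, with Rplp1 at −0.11 ± 0.193 and Rplp2 at −0.18 ± 0.150, neither called. Rplp0 rose with stage by 0.46 ± 0.084 in diabetic embryos and 0.34 ± 0.1 in diabetic yolk sacs, and Rplp2 in normal embryos by 0.50 ± 0.124 and in diabetic yolk sacs by 0.65 ± 0.117. In later normal embryos the highest litter mean of Rplp2 was 1387, in N24M21, against a median litter mean of 713.1. Rplp2 was lower in yolk sacs at both stages, at −0.40 ± 0.060 and −0.36 ± 0.105. Rplp1 was not called in any comparison. Rpsa, which also serves as the laminin receptor, was higher in later diabetic embryos at 0.30 ± 0.089 (adjusted p = 0.0312), a call lost with litter as a random block (adjusted p = 0.0787), and rose with stage in diabetic embryos (0.33 ± 0.102) and diabetic yolk sacs (0.56 ± 0.131).

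Among the members with known mouse mutants or Mdm2 binding, Rps19 and Rps20 were called higher in later diabetic embryos, Rps20 not with litter as a random block, and Rpl5, Rpl11, Rpl27a, Rpl38 and Rps7 were not called by diabetes at either stage in either tissue. In later embryos their differences were −0.04 ± 0.159, 0.13 ± 0.113, 0.06 ± 0.124, 0.14 ± 0.138 and 0.09 ± 0.128. Rpl38, whose loss alters Hox mRNA translation in the mouse, rose with stage by 0.74 ± 0.146 in diabetic yolk sacs, as did Rpl5 by 0.56 ± 0.162, Rpl11 by 0.55 ± 0.137 and Rpl27a by 0.41 ± 0.148. Rpl24, the gene of the Belly spot and tail mutant, was below the filter in all comparisons.

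The wider pathway is read against 5.2% of all genes called higher and 3.89% lower in later diabetic embryos. Calls over all genes there went from 966 to 314 with litter as a random block and to 8 with counts summed per litter. Of 73 tested mitochondrial ribosomal proteins, which are encoded in the nucleus but serve another ribosome, 19 were higher and none lower (median 0.17), with Mrpl28 at 0.45 ± 0.085, Mrpl30 at 0.44 ± 0.136, Mrpl58 at 0.42 ± 0.111 and Mrps24 at 0.40 ± 0.080. Of 28 ribosome biogenesis genes 4 were higher, the rRNA processing factors Bop1 (0.47 ± 0.098) and Pes1 (0.31 ± 0.095) and the snoRNP proteins Nhp2 (0.39 ± 0.109) and Nop56 (0.34 ± 0.082), and 1 was lower, Rrs1 (−0.31 ± 0.084). Among 14 translation factors and other mRNAs with TOP tracts only Hnrnpa1 was higher (0.34 ± 0.103), and among 15 regulators only Akt1s1, an inhibitor subunit of mTORC1 (0.62 ± 0.190).

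In earlier diabetic embryos 1 of 28 biogenesis genes was lower, Nop16 (−0.30 ± 0.074), and 1 of 15 regulators, Mtor (−0.39 ± 0.1, adjusted p = 0.0379). Of all genes 0.591% were called higher and 0.872% lower in that comparison. Embryos of a litter correlated at 0.251 in it, and the test counts them as independent. No gene of the other 3 lists was called there, and none of any list in yolk sacs at either stage. The stage by diabetes interaction in embryos called 5 of the 14 translation factors higher, among them Eef1d (0.54 ± 0.162), Eif3h (0.50 ± 0.130), Eef2 (0.44 ± 0.126) and Eef1b2 (0.41 ± 0.096), 3 of 28 biogenesis genes and 12 of 73 mitochondrial ribosomal proteins, against 4.35% of all genes in each direction.

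Between tissues, 39.4% of all genes were called higher and 39.8% lower in earlier yolk sacs, and 38.7% and 42.6% in later ones. Mitochondrial ribosomal proteins were mostly higher in yolk sacs, 44 of 73 at the earlier stage (4 lower, median 0.23) and 46 at the later stage (5 lower, median 0.33), with Mrps26 at 1.19 ± 0.063 and 1.23 ± 0.062. Of the 14 translation factors none was higher, and 8 and 9 were lower, with Hnrnpa1 at −0.76 ± 0.072 and −0.87 ± 0.077 and the nucleosome assembly protein Nap1l1 at −0.71 ± 0.044 and −0.80 ± 0.042. Of 28 biogenesis genes 10 were higher and 6 lower at the earlier stage, a share of higher calls near that of all genes, with Sbds at 0.53 ± 0.093 and the pseudouridine synthase Dkc1 at −0.72 ± 0.093. Mycn, a driver of ribosome production in embryonic progenitors, was lower in yolk sacs at −1.53 ± 0.092 and −1.74 ± 0.1, while Myc was higher at 0.94 ± 0.242 and 0.74 ± 0.193.

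With stage in diabetic yolk sacs, where most members rose, Fau, a ubiquitin-like protein made as a fusion with the small subunit protein eS30, rose by 0.72 ± 0.169, and 5 of 14 translation factors rose, with Tpt1 at 0.77 ± 0.203 and Eef1d at 0.56 ± 0.131. Pabpc1, the poly(A) binding protein, fell by 0.69 ± 0.143 in the same yolk sacs. Of the mitochondrial ribosomal proteins 21 of 73 rose and 6 fell, against 18.9% and 14.3% of all genes.

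Calls were also counted by the pyrimidine run and by shared sequence. In later embryos 7 of the 11 called members with a promoter entry had the pyrimidine run (63.6%), as had 31 of the 48 that were tested and not called (64.6%). By shared 3′ sequence, 8 of 24 tested members with none, 3 of 18 with under 50% and 6 of 36 with 50% or more were called, with medians of 0.15, 0.10 and 0.07.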

How the data were processed

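Total RNA of 66 embryos and their yolk sacs was made into 3′ tag libraries (Lexogen QuantSeq FWD, with unique molecular identifiers). The deposited table holds counts per gene and library, made by the authors with STAR, collapse_UMI_Bam and HTSeq on mm10; versions are not given in the sources used here. All columns of the 136 libraries were mapped, and 4 duplicates were left out except in 1 alternative. The yolk sac has no stage of its own in the labels, so that of its embryo was used. Counts were tested with edgeR 4.0.16 (quasi-likelihood, TMM, filterByExpr at 10 counts, Benjamini-Hochberg over all genes tested, threshold 0.05) in R 4.3.3. DESeq2 1.42.0 size factors gave normalized counts and its Wald test was an alternative, with limma 3.58.1 for litter blocks. Scripts were tested on simulated data. The diabetes comparisons were fitted on the libraries of 1 tissue and stage, the stage comparisons on those of 1 tissue, and the tissue comparisons on those of 1 stage.

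The members and lists were chosen with earlier results of these data known. Named are, in each comparison, up to 5 members called higher and 5 lower ranked by size of the log2 change, if some group averaged 10 or more normalized counts and sums per litter moved the same way. Also named are the paralogs whose symbols end in l or l and a digit with their ancestral genes, the stalk proteins and Rpsa, members with known mutants or Mdm2 binding, and the 3 highest and lowest in each tissue. Embryo and yolk sac of 1 conceptus are paired by design. The correlation of their deviations from the group means ran from −0.463 to 0.737 (median 0.103) over 66 pairs and 4607 genes. P-values over libraries count embryos of 1 litter as independent. Shared 3′ sequence and lengths were taken from the GENCODE transcripts of GRCm38, and start site windows from RefSeq. Lengths and GC content were medians over all transcripts of a gene, and the 3′ end was that of a chosen coding transcript. Results for some genes that this rule names are not reported here.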

Additional observations from a re-analysis of the deposited data

Results flagged for a closer look

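The difference between diabetic and normal embryos was itself compared between the 2 stages. The test of this interaction (edgeR quasi-likelihood test) called 10 members, all with the more positive difference in the later embryos. The largest were Rpl26 at 0.58 ± 0.173 on the log2 scale (adjusted p = 0.0297), Rpl8 at 0.57 ± 0.122 (adjusted p = 0.00621), Rps19 at 0.54 ± 0.135 (adjusted p = 0.0109), Rps14 at 0.54 ± 0.157 (adjusted p = 0.0257) and Rps15a at 0.53 ± 0.167 (adjusted p = 0.039). Only 3 diabetic litters gave embryos of both stages, so the litters differ between the stages. Every group holds 16 or 17 libraries, and no formal test for single outlying libraries was run at that size.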

How the results depend on the processing

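Counts of members called, given first as reported, changed by more than 1.5 times as follows. Diabetic against normal in earlier embryos gave 0, then 1 with DESeq2, 2 with the title number as a covariate and 1 with the length and GC trend removed. In later embryos it gave 17, then 7 with litter as a random block, 0 with counts summed per litter, 6 with all 8 groups in 1 fit and 11 with the trend removed. Leaving out 1 litter gave 0 to 4 in earlier embryos (4 without N24M21), 6 to 27 in later embryos, and 0 to 0 in yolk sacs of each stage. Yolk sac against embryo gave 43 at the earlier stage, then 69 by library totals alone. The stage change gave 13 in normal embryos, then 7 with no filter, 23 in diabetic embryos, then 14 with the trend removed, and 8 in normal yolk sacs, then 16 by library totals and 32 without N28M06A and D28M36C. The stage by diabetes interaction in embryos gave 10, then 4 with no filter. The tissue by diabetes interaction at the later stage gave 0, then 1 under the random litter block and 2 with DESeq2. The trend removal and the fits without these 2 yolk sacs were chosen after seeing the data. The 2 yolk sacs were picked by their share in the members, which favors a larger stage change without them. The tissue difference of Rpl7l1 at the earlier stage, 0.00, became −0.12 with upper-quartile factors (adjusted p = 0.0467) and −0.20 by library totals (adjusted p = 0.000144). The causes were not tested. With the conceptus as a block, which pairs embryo and yolk sac, the tissue comparisons gave 47 and 39 members against 43 and 36, and the counts of calls stayed within 1.5 times. In embryos 5 members averaged under 4 normalized counts and were below the count filter within embryos.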
